A study of Mus musculus with 17 samples.

Results

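Mural cells are the contractile and supporting cells wrapped around blood vessels. Pericytes sit within the basement membrane of capillaries and small venules, while vascular smooth muscle cells form rings around arterioles, arteries and larger veins. Both depend on PDGF-B from the endothelium, which binds the receptor PDGFR-β, and on Notch signalling through NOTCH3. Rgs5, a regulator of G protein signalling, is abundant in pericytes, and Myh11, the smooth muscle myosin heavy chain, marks the contractile end of the lineage. Skin mural cells were taken from 8 single-cell RNA libraries of GFP+ cells sorted from mouse back skin. A cell was counted as mural when it had at least 200 detected genes, at most 20% mitochondrial UMIs (unique molecular identifiers, 1 for each captured RNA molecule), at least 3 UMIs of Rgs5, Notch3, Higd1b and Myh11 together and at least 1 UMI of Pdgfrb or Mcam, and when it had no UMI of the fibroblast receptor Pdgfra, the leukocyte gene Ptprc or the glial and melanocyte gene Sox10. Of 30085 skin cells that passed the gene and mitochondrial filters, 172 met this rule, and 72 of them held more Rgs5 than Myh11 UMIs (Rgs5-led), 68 held more Myh11 (Myh11-led), 3 held equal numbers and 29 held neither transcript.

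The mice were 8 weeks old and carried PDGFRb-Cre and the Z/EG reporter, which turns on GFP in cells with a history of Cre activity. SARATg mice also carried a human ZFYVE9 cDNA, encoding SARA, which was expressed from Rosa26 after Cre removed a stop cassette. By the design of the study SARAWT mice lacked that cDNA. SARA was first described as an adaptor that presents SMAD2 and SMAD3 to the TGF-β receptor. The study describes it as dispensable for TGF-β signalling. Subcutaneous bleomycin at 20 mg/kg, a DNA-damaging drug used to provoke skin fibrosis, was compared with PBS. The labels give 3 injections a week for 2 weeks, whereas the methods of the study give a daily schedule. By the same methods, skin was taken 1 week after the injections ended. There were 3 SARAWT PBS, 3 SARAWT bleomycin, 1 SARATg PBS and 1 SARATg bleomycin libraries, so the transgenic groups had no replicate. PDGFRb-Cre also marks leukocytes, and 36.0% to 76.5% of the kept cells of a library carried Ptprc. How many mice contributed to a library is not given in the sources used here, and the p-values below measure the spread between libraries only.

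The libraries differed in ways that touch the results. Their totals ran from 3355217 UMIs in SARAWT PBS 2 to 69765525 in SARATg bleomycin, and their kept cells from 781 to 6548. A longer gene list with a human ZFYVE9 entry was used for SARAWT PBS 1 and 2 and SARAWT bleomycin 1 and 2, which also carried Xist at 441 to 688 CPM (UMIs of a gene per 1000000 UMIs). The other 4 libraries had a shorter list, at most 0.659 CPM of Xist and Y-linked transcripts such as Ddx3y at 61.7 to 97.8 CPM, so that gene list and sex cannot be told apart. Mouse Zfyve9 stood at 314 and 224 CPM in the SARATg PBS and bleomycin libraries and at 7.71 to 25.9 CPM in 5 SARAWT libraries. The library labelled SARAWT PBS 3, however, held 620 CPM, and its mural cells 1212 CPM. On the longer list, human ZFYVE9 stood at 838 CPM in the library labelled SARAWT PBS 1 against 87.4 to 187 CPM in the other three. All libraries of the longer list are labelled SARAWT, so human ZFYVE9 was found where the cDNA should be absent, most of all in SARAWT PBS 1. No SARATg library was counted on that list. These values go against the genotype labels, those of SARAWT PBS 3 and SARAWT PBS 1 in particular. Every genotype direction below rests on the labels as deposited. Cell barcodes were also shared between libraries. In SARAWT PBS 2, 55.5% of barcodes recurred in another skin library, in SARAWT bleomycin 1 and 2 17.6% and 22.1%, in SARAWT PBS 1 7.38% and in the rest at most 0.824%. Of the 172 mural cells 13 had a shared barcode, among them 7 of 11 in SARAWT PBS 2 and 2 of 3 in SARAWT bleomycin 1. A deeper cell with the same barcode lay in another skin library for 5 members. Of these, 2 were in SARAWT bleomycin 1, 1 in SARAWT bleomycin 2 and 2 in SARAWT PBS 1.

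The mural label was checked on genes the rule did not use. In the 6 libraries with at least 10 mural cells, all 25 of 25 contractile genes on a smooth muscle list were higher in mural cells than in the remaining kept cells of the same library, as were 12 of 14 pericyte genes and 12 of 15 vasoactive receptors and channels that reached 50 CPM, whereas 24.0% of 3974 genes were higher in mural cells in every library. Averaged over libraries, Myl9, the regulatory light chain of smooth muscle myosin, stood at 2646 CPM in mural cells and 21.0 CPM elsewhere. Acta2, smooth muscle actin, stood at 5509 against 102 CPM, Tagln, the actin-binding protein transgelin, at 4995 against 58.3 CPM, and Gucy1a1, a subunit of the nitric oxide receptor, at 497 against 0.416 CPM. The leukocyte genes Cd74 and Lyz2 ran the other way, at 86.1 and 9.20 CPM in mural cells against 14354 and 2365 CPM in the rest. These are descriptions without a test, since the cells were chosen by related genes.

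The 29 cells without Rgs5 or Myh11 did not carry the mural label well. They entered the rule through Notch3 alone, with a median of 4 marker UMIs (range 3 to 9) against 60.5 in Rgs5-led and 44.5 in Myh11-led cells, and none had a Higd1b UMI. By the marker lists, 27 of the 29 held at least 3 fibroblast-marker UMIs (median 33), 20 held at least 3 of skeletal muscle, 10 of leukocytes and 4 of keratinocytes. Summed over such cells in the SARAWT and SARATg bleomycin libraries with most of them, Pax7, the transcription factor of satellite cells, stood at 95.8 and 81.2 CPM. Myf5, a myogenic factor, stood at 158 and 167 CPM, and Cdh15, M-cadherin, at 219 and 296 CPM. Satellite cells of muscle are known to use Notch3, and these cells are called Notch3-only below. Their median total was 19689 UMIs, against 6751 in Rgs5-led and 8341.5 in Myh11-led cells. Bleomycin libraries held 24 of them and PBS libraries 5, which bears on every comparison over all 172 cells, so the 143 cells with Rgs5 or Myh11 are given beside the full set. At the edge of the rule, 13 members had exactly 3 marker UMIs, of which 1 carried Rgs5 or Myh11, and 13 cells with exactly 2 passed the other conditions.

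**Figure D1:**
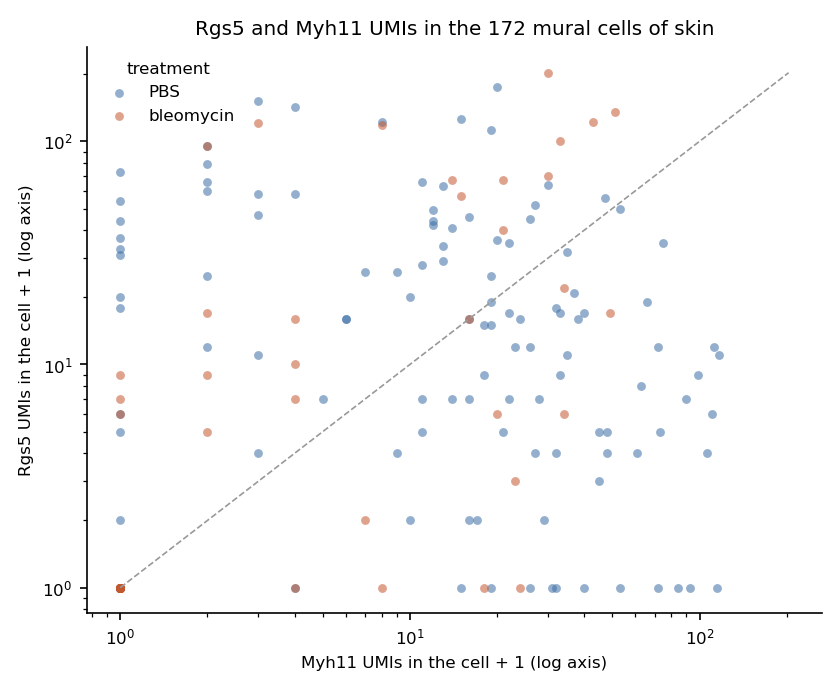
Rgs5 UMIs against Myh11 UMIs in each of the 172 cells, both plus 1 on log axes, with the dashed line marking equal numbers. The cells spread over both sides of the line, with 72 above it, 68 below it and 3 Rgs5-led or Myh11-led cells within 2 UMIs of it.

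Rgs5 (ENSMUSG00000026678, chromosome 1, 169655501 to 169695813, plus strand, GRCm38) and Myh11 (ENSMUSG00000018830, chromosome 16, 14194535 to 14291372, minus strand) covered the whole range between the extremes, with the most cells per percentage point at both ends. As a percent of Rgs5 plus Myh11 UMIs in the 143 cells, Rgs5 made up 0 to 10% in 33 cells, 10 to 25% in 13, 25 to 50% in 22, 50 to 75% in 21, 75 to 90% in 23 and 90 to 100% in 31. The cells between the ends are named Rgs5-led or Myh11-led by whichever transcript was higher. What differed between the sides, beyond the defining genes, was described in the 3 PBS libraries with at least 10 cells on both sides (SARAWT PBS 1, SARAWT PBS 3 and SARATg PBS, in that order below), with no test. Of 3760 genes that reached 50 CPM, 21.2% were higher in Rgs5-led and 21.0% higher in Myh11-led cells in all 3 libraries.

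Pericyte genes stood mostly on the Rgs5-led side, where 10 of 17 were higher in all 3 libraries and 3 were lower. Kcnj8, the pore of the pericyte KATP channel, stood at 251, 113 and 213 CPM in Rgs5-led cells and at 0, 4.64 and 0 CPM in Myh11-led cells. Abcc9, the regulatory subunit of the same channel, stood at 752, 302 and 1299 CPM against 45.2, 9.28 and 0 CPM. Steap4, a metalloreductase, was recorded 117 times in Rgs5-led cells, at 627, 246 and 639.8 CPM, and was listed at 0 in Myh11-led cells of all 3 libraries. The channel genes and Steap4 were thus far lower or not recorded on the Myh11 side. Vtn, the adhesion protein vitronectin, stood at 320.4, 176 and 814 CPM against 0, 18.6 and 0 CPM. Nes, the intermediate filament nestin, stood at 139, 94.5 and 155 CPM against 0, 32.5 and 27.4 CPM. Not every gene used for pericytes followed them. Cspg4, which encodes NG2, stood at 69.7, 202 and 136 CPM against 113, 186 and 226 CPM and took no consistent side, and Ndufa4l2, a mitochondrial protein of pericytes, averaged 487 against 475 CPM. S1pr3, a receptor for sphingosine 1-phosphate, leaned to the Myh11-led side, at 348, 586 and 543 CPM against 813, 663 and 596 CPM.

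Contractile genes showed the reverse, with 23 of 25 higher in Myh11-led cells in all 3 libraries. Cnn1, calponin, an actin-binding protein of mature smooth muscle, gave the sharpest contrast of level, at 339, 232 and 383 CPM in Myh11-led cells and 0, 6.30 and 0 CPM in Rgs5-led cells, which is 136 UMIs against 1. Actg2, the enteric form of smooth muscle actin, stood at 45.2, 97.4 and 363 CPM against 0, 6.30 and 0 CPM. Other genes of the apparatus were present on both sides at different levels. Acta2 stood at 9889, 6871 and 13735 CPM in Myh11-led cells and at 1323, 3754 and 1279.5 CPM in Rgs5-led cells. Tagln stood at 7925, 7835 and 9298 CPM against 1184, 4479 and 1318 CPM, and Myl9 at 4956, 3734 and 6053 CPM against 905, 1909 and 931 CPM. Acta2 and Tagln were thus graded rather than exclusive, and in SARAWT PBS 3 the sides lay closer together than in the other libraries. Pln, phospholamban, which restrains the calcium pump of the sarcoplasmic reticulum, stood at 564, 176 and 842 CPM against 27.9, 164 and 38.8 CPM. Casq2, a calcium store protein, was the exception, at 111, 170.1 and 271 CPM in Rgs5-led cells and 56.4, 32.5 and 144 CPM in Myh11-led cells.

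**Figure D2:**
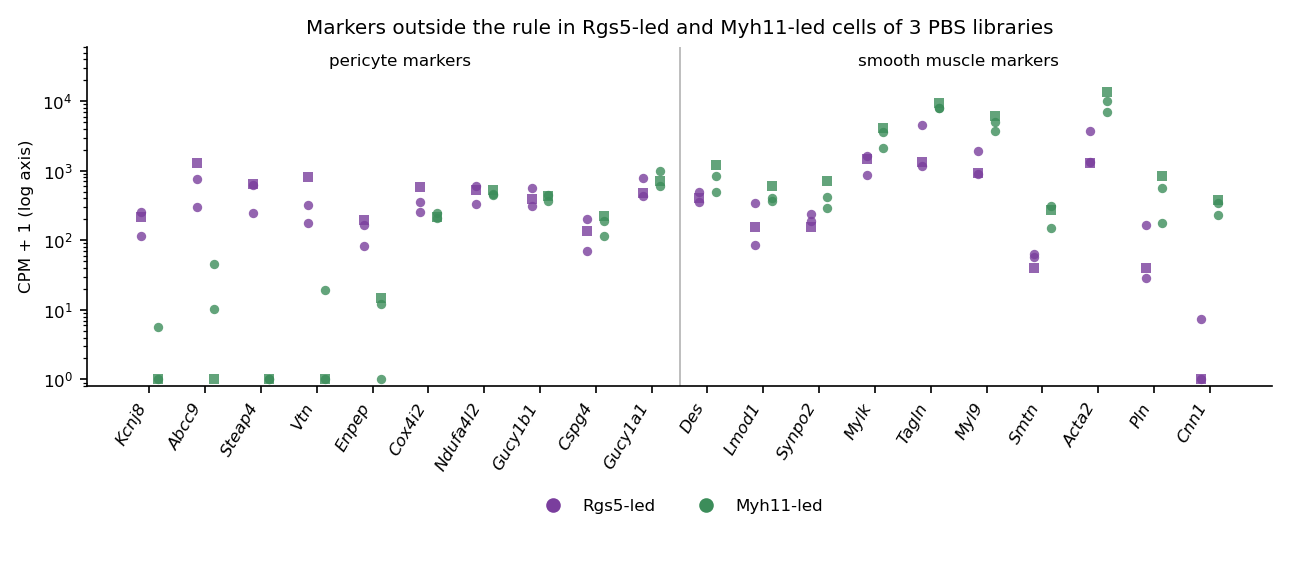
Levels in CPM plus 1 (log axis) of 10 pericyte and 10 smooth muscle genes in Rgs5-led and Myh11-led cells, with 1 point for each of 3 PBS libraries and squares for SARATg. Kcnj8, Abcc9 and Steap4 lie higher in Rgs5-led cells and Cnn1 higher in Myh11-led cells, while Cspg4 and Ndufa4l2 overlap.

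Many smooth muscle genes carry CArG boxes, the sites read by serum response factor with its partner myocardin, so the promoter of the light chain gene Myl9, the gene outside the rule with the largest ratio of mural to other cells (10 CPM added to both means), is shown here. Its RefSeq promoter in GRCm38.p6 holds a CArG box that begins 161 bases before the start, printed in capitals within chr2:156775258-156775357 (plus strand).
Myl9: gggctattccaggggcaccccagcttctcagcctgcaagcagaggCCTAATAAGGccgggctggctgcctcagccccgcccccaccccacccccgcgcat
A CArG box on either strand occurred in the 250 bases before the start in 482 of 32851 RefSeq promoters (1.47%), in 1 of 20 contractile genes with an entry, which was Myl9, and in 0 of 19 pericyte genes with an entry (22 listed outside the rule). Only the strict form was counted, with A and T alone between CC and GG. A gene not counted can thus still hold a box with a mismatch. This is a description of letters in a short window.

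Receptors and signals also differed in level along the range. P2rx1, the ATP-gated channel of arterial smooth muscle, stood at 181, 125 and 246 CPM in Myh11-led cells and 0, 63.0 and 0 CPM in Rgs5-led cells. Rgs2, which shortens vasoconstrictor signalling, stood at 349.9, 121 and 137 CPM against 41.8, 63.0 and 19.4 CPM, and Itpr1, the calcium release channel gated by IP3, at 463, 283 and 466 CPM against 167, 164 and 155 CPM. The angiotensin receptor Agtr1a leaned the other way, at 83.6, 31.5 and 77.5 CPM in Rgs5-led cells against 0, 0 and 27.4 CPM. Of 10 chemokine and adhesion genes 5 were higher in Rgs5-led cells in all 3 libraries and 0 lower. Ccl2, which draws monocytes, stood at 7578, 1543 and 1086 CPM against 0, 269 and 6.85 CPM, and Cxcl12 at 446, 195 and 465 CPM against 90.3, 74.2 and 61.6 CPM. Il6, however, stood at 2953, 1644 and 3587 CPM in Rgs5-led cells and 576, 1656 and 68.5 CPM in Myh11-led cells, with near-equal levels in SARAWT PBS 3. Interferon-stimulated genes were higher in Rgs5-led cells for 8 of 12 and lower for 0, an example being Ifitm1, at 181, 44.1 and 233 CPM against 11.3, 0 and 0 CPM. Among basement membrane genes 7 of 16 were higher and 3 lower in Rgs5-led cells. Nid1, nidogen, stood at 320.4, 94.5 and 407 CPM against 11.3, 9.28 and 20.5 CPM and the type IV collagen gene Col4a1 at 1449, 901 and 1532 CPM against 508, 649 and 499.8 CPM, whereas Col18a1 was higher in Myh11-led cells, at 395, 455 and 294 CPM against 181, 321 and 194 CPM. Transcripts of neighbouring cells also moved along this range. In the Rgs5-led cells of SARAWT PBS 1, SARAWT PBS 3 and SARATg PBS the 7 endothelial markers summed to 1175, 12.6 and 445.6 CPM, with 5, 0 and 1 cells at 3 or more such UMIs, and in Myh11-led cells to 0, 9.27 and 0 CPM. The fibroblast markers summed to 498, 302 and 988 CPM against 269, 172 and 328 CPM. Flt1, an endothelial VEGF receptor, at 202 against 0 CPM, and Cd36, at 558 against 1.55 CPM, were among the 10 genes that leaned furthest to the Rgs5 side, and their part in the difference was not tested.

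Mural cells made up a smaller share of the sorted skin cells after bleomycin. They were 0.564%, 1.41%, 1.10% and 0.680% of kept cells in SARAWT PBS 1, 2 and 3 and SARATg PBS, and 0.139%, 0.369%, 0.412% and 0.348% in SARAWT bleomycin 1, 2 and 3 and SARATg bleomycin. The lowest PBS library thus lay above the highest bleomycin library. The means were 0.938% ± 0.389 (SD, n = 4) and 0.317% ± 0.122 (SD, n = 4), a 2.96-fold difference (exact permutation test over libraries, two-sided, p = 0.0286, the smallest that 4 against 4 libraries allow, adjusted p = 0.0612 over 15 comparisons of shares). Within SARAWT the means differed by -0.717 percentage points (n = 3 and 3, exact permutation p = 0.1, the smallest that design allows), and a sign-flip test with the replicate numbers as pairs gave p = 0.25, again the smallest possible. Without SARAWT PBS 2, the library with the most shared barcodes, the difference over all libraries was -0.464 points (exact permutation p = 0.0571, the smallest for 7 libraries).

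The gap was wider for cells with Rgs5 or Myh11, and widest on the contractile side. Cells with either transcript fell from 0.910% ± 0.409 to 0.202% ± 0.0566 (SD, n = 4 each, exact permutation p = 0.0286), a 4.51-fold difference. Rgs5-led cells were 0.294%, 0.384%, 0.539% and 0.241% of cells in the PBS libraries and 0.139%, 0.138%, 0.122% and 0.136% in the bleomycin libraries, a 2.73-fold difference of means without overlap (exact permutation p = 0.0286). The share in SARAWT bleomycin 1 counts cells of 634 and 844 UMIs. Their barcodes recur in SARAWT PBS 2 mural cells of 8087 and 10973 UMIs. Myh11-led cells were 0.245%, 0.896%, 0.539% and 0.351% against 0%, 0.138%, 0.0611% and 0.0581%, a 7.89-fold difference without overlap (exact permutation p = 0.0286), where the 0 in SARAWT bleomycin 1 allows a share of up to 0.171% (95% Clopper-Pearson interval, counting error only). Notch3-only cells did not follow, at means of 0.0280% and 0.115% that overlapped between groups (exact permutation p = 0.143). Whether Myh11-led cells changed more than Rgs5-led cells was tested as their share of mural cells. It averaged 51.9% ± 8.51 (SD) in 4 PBS libraries and 15.7% in the 2 bleomycin libraries with at least 10 mural cells (exact permutation p = 0.133, the smallest this design allows), and 54.1% against 30.4% when Notch3-only cells were left out. SARAWT bleomycin 2, below that minimum, held 3 Rgs5-led and 3 Myh11-led cells and so did not lean to the Rgs5 side.

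Other cell classes moved with these shares. Cells carrying endothelial markers fell from 1.54% ± 0.269 to 0.637% ± 0.0991 (SD, n = 4 each, exact permutation p = 0.0286), a 2.42-fold difference, and Pdgfra-positive stromal cells averaged 10.2% and 3.44% with overlap (exact permutation p = 0.0571). A share of sorted cells can be set by the leukocytes in the sort. Among cells with no Ptprc UMI, cells with Rgs5 or Myh11 still stood at 1.98% ± 0.852 against 0.663% ± 0.192 (SD, n = 4 each, exact permutation p = 0.0286), a 2.99-fold difference without overlap, and Myh11-led cells at 1.07% against 0.207% without overlap (exact permutation p = 0.0286). All 172 members and Rgs5-led cells overlapped between treatments on this scale (exact permutation p = 0.114 and p = 0.0571). Relative to endothelial cells, cells with Rgs5 or Myh11 numbered 58.2 ± 19.9 per 100 in PBS and 31.5 ± 6.27 per 100 after bleomycin (SD, n = 4 each), with overlap (exact permutation p = 0.0571). Fewer cells in the tissue and fewer cells recovered by digestion and sorting cannot be told apart. Membership and the Rgs5-led or Myh11-led side are read from the rule's own genes. A change of those transcripts within cells would also move these shares, which was not tested.

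**Figure D3:**
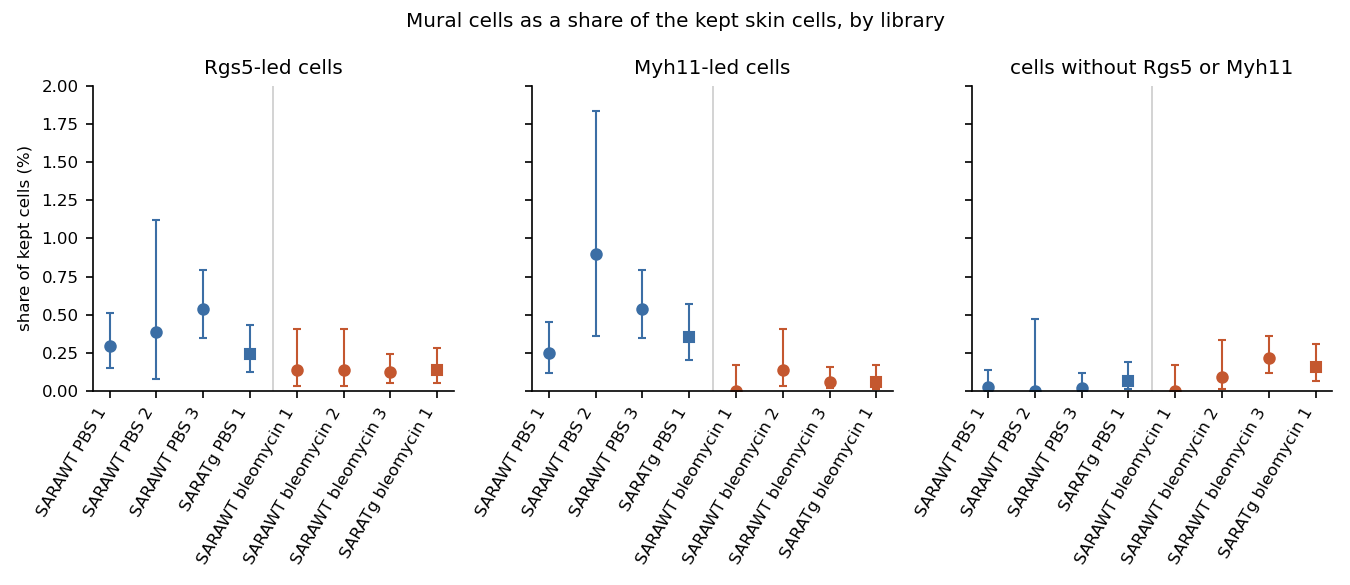
Share of kept cells (percent) that were Rgs5-led, Myh11-led or without Rgs5 or Myh11 in each of 8 libraries, with 95% Clopper-Pearson bars for counting error. The PBS libraries lie above the bleomycin libraries for Rgs5-led and Myh11-led cells and overlap with them for the cells without either transcript.

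Gene levels were compared on UMIs summed over the mural cells of a library, with at least 10 cells required, which left SARAWT bleomycin 3 as the only SARAWT bleomycin library. Its spread is not measured and is taken from the 3 PBS libraries, so that the SARAWT calls set 1 bleomycin library against PBS. Taken over all members of the rule, SARAWT bleomycin against SARAWT PBS, edgeR called 699 of 5871 genes at an adjusted p under 0.05 (11.9%), 339 higher (5.77%) and 360 lower (6.13%). With the members whose barcode recurs in another library left out, which drops SARAWT PBS 2 from the fit, 0 of 6568 genes were called by edgeR (1302 at an unadjusted p under 0.05), whereas leaving out SARAWT PBS 2 as a whole gave 954 calls, both with 1 residual degree of freedom. Contractile genes were lower for 18 of 25 and higher for 0, pericyte genes lower for 8 and higher for 1 of 18, and fibrosis genes higher for 16 of 22 and lower for 0, where the median log2 fold change of all genes was -0.02. Acta2 stood at 5335, 9006 and 5407 CPM in the PBS libraries and 1694 CPM after bleomycin (log2 fold change -1.84 ± 0.48 SE, adjusted p = 0.0203, edgeR), and Cspg4 at 82.4, 136 and 187 against 30.8 CPM (log2 fold change -2.08 ± 0.60 SE, adjusted p = 0.0320, edgeR). With SARAWT bleomycin 2 added, which the replicate block needs, the blocked values were -0.99 for Acta2 (adjusted p = 0.197, edgeR) and -1.80 for Cspg4 (adjusted p = 0.12, edgeR). Here 14 of the 27 bleomycin cells were Notch3-only. The satellite cell genes Pax7 and Myf5 were higher with them, and Cdh15 was listed at 0 in all 3 PBS libraries and at 168 CPM after bleomycin. Among the genes that leaned furthest, Xist and Nme2 moved with the sex and the gene list of the libraries, and with the replicate block, which pairs libraries of 1 sex and list, their log2 fold changes were 0.021 and -0.0081. With Notch3-only cells left out of the same comparison, 51 of 3105 genes were called (1.64%), 42 higher (1.35%) and 9 lower (0.29%), and the contractile list had 0 of 25 and the pericyte list 0 of 15 called. The median log2 fold change of the contractile list was -0.31 there, against -1.79 over all members, while 10 of 19 fibrosis genes were still higher and 0 lower. Adding SARAWT bleomycin 2 with its 6 such cells left 0 of 1854 genes called by edgeR, with 249 at an unadjusted p under 0.05.

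The response of cells with Rgs5 or Myh11 was then measured over both genotypes, in 22, 11, 50 and 28 cells of SARAWT PBS 1, 2 and 3 and SARATg PBS and in 13 and 10 cells of SARAWT bleomycin 3 and SARATg bleomycin, with terms for gene list, genotype and treatment. This comparison was added after the data had been seen. It has 2 residual degrees of freedom, and each lone SARATg library is assumed to vary like the others. SARAWT PBS 1 and 2 are the only longer-list libraries here, so the gene list term fits them. The log2 fold changes thus rest on SARAWT PBS 3 and SARATg PBS against SARAWT bleomycin 3 and SARATg bleomycin. No longer-list bleomycin library enters, and the Zfyve9 level of SARAWT PBS 3 goes against its label. Without the gene list term 149 genes were called, 120 of them among the 145 given next. Of 2621 genes, edgeR called 145 (5.53%), 63 higher (2.4%) and 82 lower (3.13%) after bleomycin, and 34.9% of the genes had PBS and bleomycin libraries that did not overlap. The values below follow the order in which these libraries are named here, with SARAWT bleomycin 2, at 6 cells too few for the fit, given where it bears on the result. In such sums, more RNA per cell and more cells that carry a transcript cannot be told apart without the per-cell counts, which are given further on.

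Contractile genes were called in 0 of 25, with 24 of 25 log2 fold changes below 0, a median of -0.42 against -0.03 for all genes and 5 at an unadjusted p under 0.05. In PBS 23 of 25 were higher in Myh11-led cells, whose mean share was 54.1% in PBS and 30.4% after bleomycin. The part of this mix in the fall was not tested, nor in rises of genes higher in Rgs5-led cells, such as Kcnj8 and Col4a1. In Rgs5-led cells alone, with at least 5 cells per library and no gene list term, the log2 fold change of Acta2 was 0.45. Acta2 stood at 6055, 9006, 5549 and 10249 CPM in PBS and 5366 and 6491 CPM after bleomycin (log2 fold change -0.38 ± 0.27 SE, adjusted p = 0.468, edgeR), with 9683 CPM in SARAWT bleomycin 2. Mylk, the kinase that phosphorylates the myosin light chain, stood at 2382, 2372, 1889 and 3382 CPM against 1301 and 1710.1 CPM (adjusted p = 0.106, edgeR). Of 14 pericyte genes 1 rose and 1 fell, with a median of -0.02. The KATP channel gene Kcnj8 stood at 112, 0, 50.8 and 53.7 CPM against 163 and 175 CPM (log2 fold change 1.65, adjusted p = 0.136, edgeR, or 1.64 and adjusted p = 0.0239 with replicate numbers as a block). The richest cell held 68.8% of the Kcnj8 UMIs in SARAWT bleomycin 3 and 77.8% in SARATg bleomycin. SARAWT bleomycin 2 held 0 Kcnj8 UMIs in its 6 cells. Cspg4 stood at 93.5, 136, 192 and 195 CPM against 112 and 243 CPM, with overlap (log2 fold change -0.22, adjusted p = 0.802, edgeR). Rule genes are given as levels alone. Notch3 stood at 929, 1043, 844 and 927 CPM in PBS and 874 and 913 CPM after bleomycin, Rgs5 at 2563, 3385, 4186 and 3753 against 4024 and 5568 CPM, and Myh11 at 4190.3, 3339, 2933 and 4709.7 against 1646 and 2040.5 CPM, which moves with the lower Myh11-led share. The vasoactive receptors and channels were called in 0 of 17, and Notch genes in 0 of 5.

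The pericyte gene that fell was S1pr3 (ENSMUSG00000067586, chromosome 13, 51408639 to 51422797, plus strand), a receptor through which sphingosine 1-phosphate acts on vessel tone. It stood at 605, 604, 630.5 and 586 CPM in the PBS libraries, 606 ± 18.4 CPM (SD, n = 4), and at 264 and 223 CPM after bleomycin (log2 fold change -1.34 ± 0.32 SE, adjusted p = 0.0299, edgeR). The library left out of the fit, SARAWT bleomycin 2, gave 286 CPM. These 3 bleomycin libraries lay below a narrow band of PBS values, and SARAWT bleomycin 1, with 3 cells at a median of 844 UMIs, was too shallow for a level (4 S1pr3 UMIs, all in 1 cell). The lower level was also seen in Rgs5-led cells alone, at 348, 586 and 543 CPM in SARAWT PBS 1, SARAWT PBS 3 and SARATg PBS and at 226 and 239.6 CPM after bleomycin. DESeq2 did not call it. The pericyte gene that rose was Cd248, endosialin, a surface glycoprotein of activated pericytes and fibroblasts, at 6.24, 15.1, 37.4 and 43.9 CPM against 132 and 262 CPM (log2 fold change 2.16 ± 0.49 SE, adjusted p = 0.0251, edgeR), with 71.5 CPM in SARAWT bleomycin 2. Cd248 was carried by 4 of 13 cells in SARAWT bleomycin 3 and 7 of 10 in SARATg bleomycin, and it lost its call in 5 of 16 alternatives.

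Basement membrane genes rose for 4 of 15 and fell for 0, with a median log2 fold change of 0.91. The clearest was Col18a1 (ENSMUSG00000001435, chromosome 10, 77052178 to 77166548, minus strand), the vascular basement membrane collagen whose end fragment is endostatin. It stood at 299, 181, 398 and 264 CPM in PBS and 1331 and 1370.0 CPM after bleomycin (log2 fold change 2.02 ± 0.33 SE, adjusted p = 0.00653, edgeR), and at 715 CPM in SARAWT bleomycin 2. It was carried by 11 of 13 cells in SARAWT bleomycin 3, 9 of 10 in SARATg bleomycin and 5 of 6 in SARAWT bleomycin 2, with 39.7%, 31.2% and 76.7% of its UMIs in the richest cell, so that the level in SARAWT bleomycin 2, 23 of 30 UMIs, rests mainly on 1 cell. In Rgs5-led cells alone it stood at 181, 321 and 194 CPM in PBS and 1568 and 1677 CPM after bleomycin. Col4a1 and Col4a2, the main chains of the type IV collagen network, rose less. Col4a1 stood at 929, 423, 756 and 752 CPM against 1900.4 and 1759 CPM (log2 fold change 1.25 ± 0.34 SE, adjusted p = 0.0490, edgeR), and Col4a2 at 405, 302, 355 and 390.4 CPM against 1108 and 1020.2 CPM (log2 fold change 1.49 ± 0.30 SE, adjusted p = 0.0175, edgeR). In SARAWT bleomycin 2 these stood at 763 and 358 CPM, within the PBS range, and neither was called once that library was included. Sparc, a collagen-binding matricellular protein, stood at 2550.3, 1662, 1485 and 1689 CPM against 4156 and 3411 CPM (log2 fold change 1.22 ± 0.29 SE, adjusted p = 0.0308, edgeR) but at 1455 CPM in SARAWT bleomycin 2, below all PBS libraries, and was not called with that library included.

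Fibrosis genes rose for 11 of 18 and fell for 0, with a median log2 fold change of 2.26. Col5a2 (ENSMUSG00000026042, chromosome 1, 45374321 to 45503282), a fibril-nucleating collagen, stood at 43.6, 45.3, 48.1 and 34.2 CPM in PBS and 650.4 and 379 CPM after bleomycin (log2 fold change 3.60 ± 0.39 SE, adjusted p = 0.000492, edgeR). Col3a1 stood at 156, 30.2, 251 and 259 CPM against 2266 and 1205 CPM (log2 fold change 2.69 ± 0.42 SE, adjusted p = 0.00514, edgeR). Fn1, fibronectin, stood at 181, 242, 297 and 195 CPM against 488 and 943 CPM (log2 fold change 1.45 ± 0.38 SE, adjusted p = 0.0449, edgeR). In SARAWT bleomycin 2 these stood at 143, 215 and 525 CPM, so that Col5a2 and Fn1 lay above all PBS libraries there and Col3a1 did not, but 1 of the 6 cells held all 6 Col5a2 UMIs and 18 of the 22 Fn1 UMIs came from 1 cell. Lgals1, the lectin galectin-1, stood at 1004, 1420.4, 1066 and 1220.1 CPM against 2043 and 2701 CPM (log2 fold change 1.02 ± 0.27 SE, adjusted p = 0.0490, edgeR), with 2194 CPM in SARAWT bleomycin 2. The type VI collagen gene Col6a1, at 249, 60.4, 80.1 and 127 against 864 and 758 CPM (log2 fold change 2.98, adjusted p = 0.00514, edgeR), and the matricellular gene Postn, at 99.8, 15.1, 26.7 and 63.4 against 619.9 and 233 CPM (log2 fold change 3.24, adjusted p = 0.0134, edgeR), stood at 95.4 and 0 CPM in SARAWT bleomycin 2 and lost their call with it.

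The collagen rise was unevenly spread over few cells. Col1a1 stood at 162, 90.7, 115 and 239 CPM in PBS and 3760.1 and 418 CPM after bleomycin, and 1 cell supplied 88.6% and 83.7% of its UMIs in the 2 bleomycin libraries. For Col3a1 the richest cell supplied 63.7% and 47.6%, for Col5a2 45.3% and 33.3%, and Col5a2 was found in 8 of 13 and 4 of 10 cells. Spp1, osteopontin, at 0, 0, 2.67 and 0 CPM in PBS and 589 and 1574 CPM after bleomycin, came from 1 cell in each library, as 58 and 162 UMIs. Mgp, an inhibitor of vascular calcification, at 162, 30.2, 37.4 and 43.9 CPM against 437 and 758 CPM (log2 fold change 3.76, adjusted p = 0.00279, edgeR), drew 88.4% and 75.6% from 1 cell. In SARAWT bleomycin 2, Col1a1 had 2 UMIs, both in 1 of 6 cells, and Spp1 and Mgp had 0. Fibroblast markers moved with the collagens in the fitted libraries. The 7 of them, all with a UMI somewhere, summed to 196 to 498 CPM in the PBS libraries and to 8099.5 and 981 CPM in SARAWT bleomycin 3 and SARATg bleomycin, with Dcn at 2043 CPM in the former and 99.0% of it in 1 cell. The fibrosis list shares Lum, Col1a1 and Col1a2 with them. When the 8 cells with 3 or more UMIs of Dcn, Lum, Dpt, Pi16 or Clec3b were left out and SARAWT bleomycin 2 was included, 68 of 1679 genes were called, 14 higher and 54 lower, and Col18a1, Fn1, Col3a1, Col5a2, Lgals1, S1pr3, Fosl2, Cebpb, Mt1 and Cdkn1a kept their call. Of the other markers, endothelial markers summed to 0 to 530.0 CPM in PBS against 20.3 and 9.72 CPM after bleomycin, leukocyte markers to 61.4 to 156 against 224 and 77.7 CPM, keratinocyte markers to at most 39.0 CPM with Krt15 at 0, and skeletal muscle markers to 0 to 459.5 against at most 30.5 CPM with Pax7 and Myf5 at 0.

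**Figure D4:**
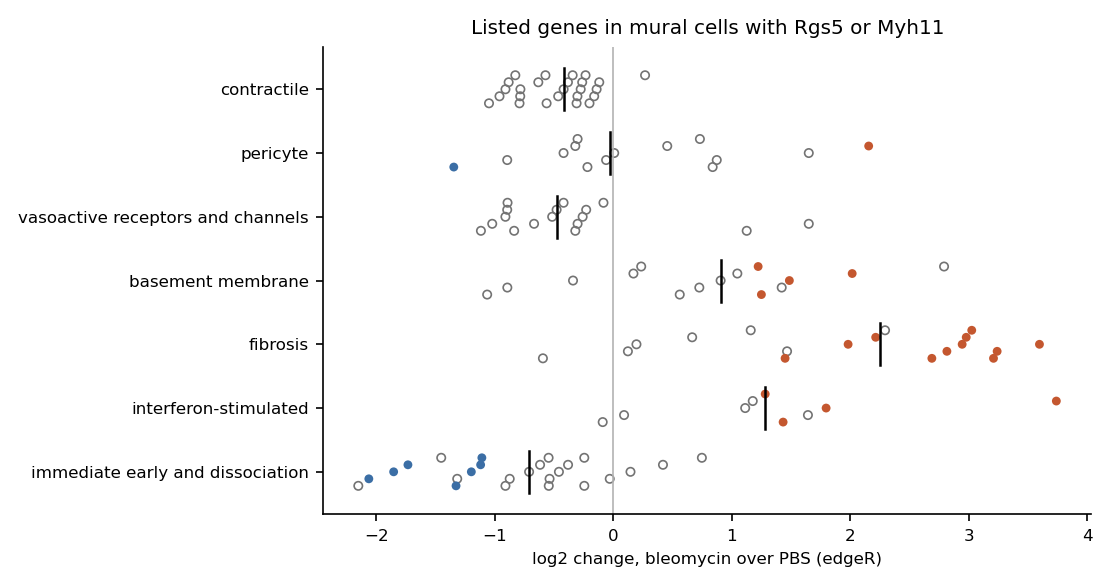
Log2 fold change after bleomycin of the genes of each list in cells with Rgs5 or Myh11 (6 libraries, edgeR), with filled points at an adjusted p under 0.05 and a black tick at the median of each list. Fibrosis genes have a median of 2.26, and contractile genes have 0 of 25 called. Of the immediate early and dissociation genes 7 of 25 were called, all lower.

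Genes of the immediate early and dissociation list fell for 7 of 25 and rose for 0. Immediate early genes respond within minutes to stress, growth factors and tissue dissociation. The list also holds other genes, such as the metallothionein gene Mt1. Cebpb (ENSMUSG00000056501, chromosome 2, 167688915 to 167690418, plus strand), a transcription factor of inflammation, stood at 2981, 5062, 3398 and 1201 CPM in PBS and 1026 and 311 CPM after bleomycin (log2 fold change -1.85 ± 0.31 SE, adjusted p = 0.00676, edgeR), with 358 CPM in SARAWT bleomycin 2. Fosl2, a subunit of AP-1, stood at 624, 468, 703 and 454 CPM against 183 and 165 CPM (log2 fold change -1.73 ± 0.35 SE, adjusted p = 0.0175, edgeR), and 334 CPM in that library. The values of both genes in these 3 bleomycin libraries lay below all PBS values. Klf4, a factor that opposes the contractile programme of smooth muscle, stood at 1122, 1299, 1304 and 1083 CPM against 518 and 136 CPM (log2 fold change -2.06 ± 0.38 SE, adjusted p = 0.0124, edgeR). Junb stood at 3429.6, 4427, 4309 and 2953 CPM against 2348 and 1185 CPM (adjusted p = 0.0308, edgeR) but at 3911 CPM in SARAWT bleomycin 2. Mt1 stood at 2681, 3838, 2124 and 1044 CPM against 874 and 418 CPM (log2 fold change -1.33 ± 0.29 SE, adjusted p = 0.0228, edgeR). In SARAWT bleomycin 2 it had 57 UMIs in 2 of 6 cells, a level above that of SARATg PBS. The share of this fall that arose during digestion of the tissue was not tested.

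Bleomycin breaks DNA. Of 19 listed p53 target genes 7 could be tested, with 1 called higher, 1 called lower and 3 at an unadjusted p under 0.05 (edgeR). Their median log2 fold change was -0.24, and movement as a group was not tested. Cdkn1a, the cell cycle inhibitor p21, stood at 1721, 1828, 1651 and 1025 CPM in PBS and 986 and 291 CPM after bleomycin (log2 fold change -1.25 ± 0.32 SE, adjusted p = 0.0383, edgeR), with 787 CPM in SARAWT bleomycin 2. Bax, the pore-forming apoptosis protein, stood at 49.9, 60.4, 74.8 and 34.2 CPM against 173 and 262 CPM (log2 fold change 1.90 ± 0.45 SE, adjusted p = 0.0308, edgeR), with 71.5 CPM in SARAWT bleomycin 2. Proliferation genes were called in 0 of 4. Interferon-stimulated genes rose for 4 of 9 and fell for 0, with a median log2 fold change of 1.28. In PBS 8 of 12 such genes were higher in Rgs5-led cells, and the Myh11-led share of the cells summed was lower after bleomycin. The part of this mix in the rise was not tested. Ifitm3, a membrane protein that blocks viral entry, stood at 1615, 1118, 1728 and 932 CPM against 3059 and 3274 CPM (log2 fold change 1.28 ± 0.31 SE, adjusted p = 0.0330, edgeR), with 1455 CPM in SARAWT bleomycin 2. H2-D1, a class I histocompatibility gene, stood at 412, 438, 262 and 249 CPM against 813 and 602 CPM (log2 fold change 1.43 ± 0.31 SE, adjusted p = 0.0213, edgeR). Ifitm1, at 87.3, 0, 18.7 and 58.6 against 549 and 408 CPM, was called too, with 66.7% and 81.0% of its UMIs in 1 cell. All 4 interferon calls were lost when SARAWT bleomycin 2 was included.

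Chemokine genes were called in 0 of 10 (median log2 fold change -1.19) and genes of the IL-6 family and type 2 receptors in 0 of 8. Il6 stood at 1640.0, 212, 1651 and 952 CPM in PBS and 579 and 9.72 CPM after bleomycin, with overlap (adjusted p = 0.0824, edgeR, or 0.0110 with replicate numbers as a block). Ednra, the receptor that mediates constriction by endothelin, stood at 87.3, 90.7, 144 and 132 CPM against 366 and 253 CPM, without overlap but short of the threshold (log2 fold change 1.13 ± 0.35 SE, adjusted p = 0.0903, edgeR). The 1 TGF-β gene called was Zfyve9 itself, whose levels go against a library label. Of the genes that the study names, a list chosen on these samples and so no independent evidence of direction, 4 of 10 rose and 1, Zfyve9 again, fell. Rergl, a Ras-like protein of arterial smooth muscle, stood at 93.5, 257, 136 and 254 CPM against 40.6 and 9.72 CPM (log2 fold change -2.90, adjusted p = 0.0311, edgeR) but at 191 CPM in SARAWT bleomycin 2. Outside the lists, the genes with the widest changes included Spon1 and Aebp1, matrix proteins, and Apod, a lipid carrier, at 203 and 243 CPM after bleomycin against 0 to 18.7 CPM, and 100% and 96.0% of the Apod UMIs came from 1 cell. In SARAWT bleomycin 2, Spon1 and Apod had 0 UMIs and Aebp1 had 6. Plagl1, a zinc finger factor, was among the genes that fell. It stood at 125, 121, 85.5 and 39.0 CPM in PBS and 0 in both bleomycin libraries of the fit. Over all members of the rule Plagl1 was called in the other direction (log2 fold change 2.41, adjusted p = 0.000773, edgeR). Nfil3, a repressor of the circadian and immune programmes, fell too, at 149.7, 106, 74.8 and 146 CPM against 0 and 9.72 CPM. So did Vps37b, part of the endosomal sorting complex, at 224, 363, 393 and 219.6 CPM against 30.5 and 48.6 CPM (log2 fold change -2.91 ± 0.50 SE, adjusted p = 0.00791, edgeR).

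**Figure D5:**
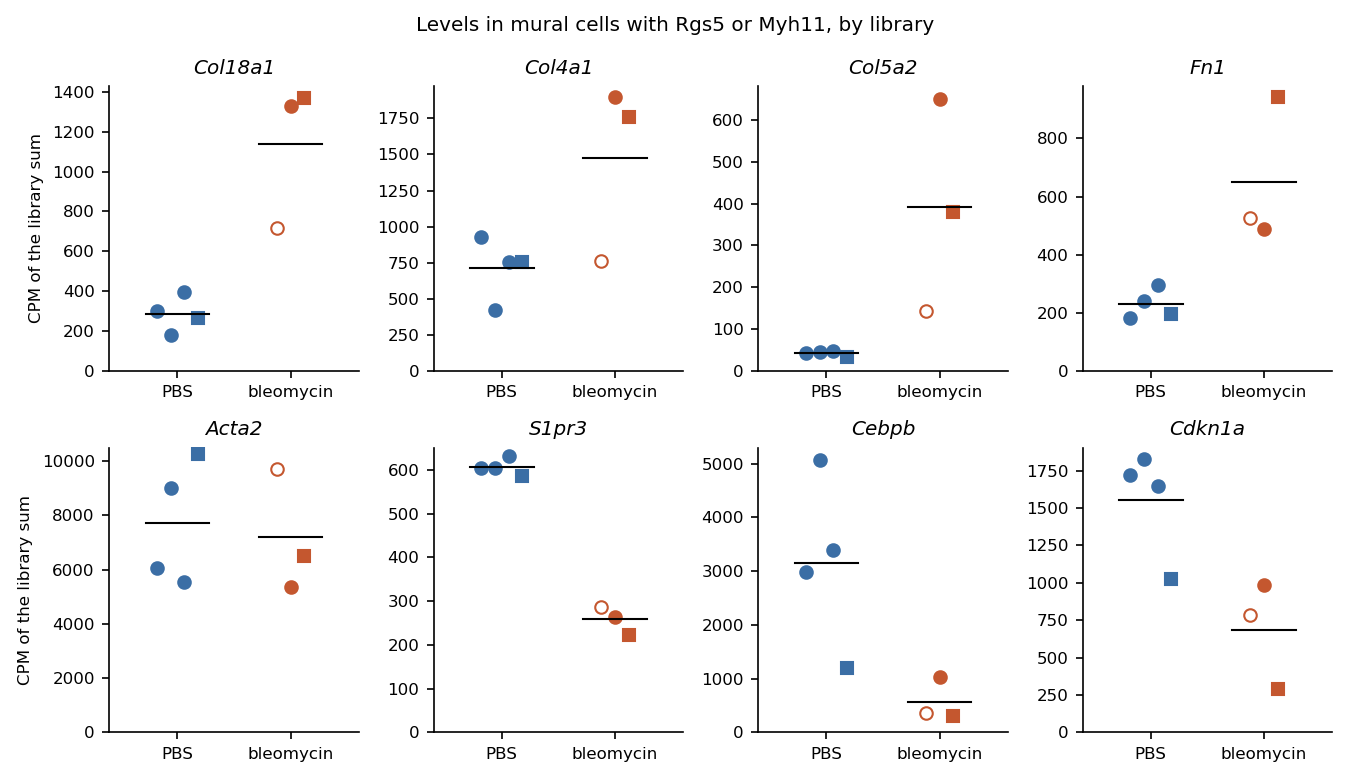
Level in CPM of Col18a1, Col4a1, Col5a2, Fn1, Acta2, S1pr3, Cebpb and Cdkn1a in cells with Rgs5 or Myh11, with 1 point per library, squares for SARATg, bars for the means and an open circle for SARAWT bleomycin 2 with 6 cells. Col18a1, Col5a2 and Fn1 lie above and S1pr3, Cebpb and Cdkn1a below the PBS libraries in the 3 bleomycin libraries drawn, while Acta2 overlaps. SARAWT bleomycin 1, with 3 cells, is not drawn.

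The number of calls depended on single libraries. With 1 library of the fit left out at a time, the count ran from 39 without SARATg bleomycin and 57 without SARATg PBS to 81 without SARAWT bleomycin 3, 88 without SARAWT PBS 3, 261 without SARAWT PBS 1 and 343 without SARAWT PBS 2, and 29, 43, 53, 61, 144 and 145 of these were among the 145. With SARAWT bleomycin 2 added the count was 71, of which 64 were among the 145, and the split moved from 63 higher and 82 lower to 19 higher and 52 lower. Without the cells carrying fibroblast markers as well, it was 14 higher and 54 lower. DESeq2 called 54, of which 53 were among the 145. With replicate numbers as a block it was 196, including all 145. The block leaves SARAWT PBS 1 and 2 without a partner, so its log2 fold changes rest on the same libraries as the main fit, with 1 residual degree of freedom. Leaving out SARAWT PBS 1 or 2 keeps those libraries as well. The overlap in these cases is therefore no separate check. In Rgs5-led cells alone, with the minimum lowered to 5 cells per library and no term for gene list, 2 of 1376 genes were called, Spp1 and Col5a2, and 121 of the 122 genes of the 145 that could be tested had the same sign. Col5a2 kept its call under the 15 alternatives that altered the cells, libraries or model of this comparison.

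To see whether mural cells answered bleomycin as the surrounding stroma did, the treatment effect in cells with Rgs5 or Myh11 was compared with that in Pdgfra-positive stromal cells of the same SARAWT libraries, again with 1 bleomycin mural library, whose own spread is not measured and is taken from the other sums. Stromal cells had at least 1 Pdgfra UMI and at least 3 UMIs of Col1a1, Col1a2 and Dcn together. They had fewer than 3 UMIs of the mural markers and none of Ptprc or Sox10. Their Col1a1, Col1a2 and Dcn levels were thus partly set by the choice of cells. The fibrosis counts below include Col1a1 and Col1a2, and the fibroblast marker counts include Dcn as well. A difference was called for 103 of 8768 genes (1.17%), with 89 more positive (1.02%) and 14 more negative (0.16%) in mural cells. Among these, fibrosis genes were more positive for 12 of 25 and basement membrane genes for 4 of 18, with none more negative, and contractile genes were more negative for 2 of 25. Over all members 422 of 9061 genes were called (4.66%), with 304 more positive (3.36%) and 118 more negative (1.3%), among them 16 of 25 fibrosis genes more positive and 12 of 25 contractile genes more negative, and the count was 147 without SARAWT PBS 2 and 233 without SARAWT PBS 3. In cells with Rgs5 or Myh11, Col5a2 differed by 4.18 on the log2 scale (adjusted p = 5.33e-05, edgeR), Col3a1 by 4.27 (adjusted p = 2.14e-05, edgeR) and Col4a1 by 2.34 (adjusted p = 0.0123, edgeR). For Col4a1 the stromal level went from a mean of 505 CPM in PBS to 245 CPM after bleomycin, against the rise in mural cells. Fibroblast markers were among the genes that differed, 5 of 7 of them, so the caution on cells with fibroblast transcripts holds here as well. Sncg, a synuclein, stood at 636, 952 and 788 CPM in PBS and 569 CPM after bleomycin in mural cells and differed from stroma by -4.28 (adjusted p = 0.000125, edgeR). Tpm2, smooth muscle tropomyosin, stood at 3193, 4276 and 2856 CPM in PBS and 2144 CPM after bleomycin in mural cells and differed by -2.89. Cav1, caveolin, stood at 368, 514 and 361 CPM against 142 CPM and differed by -2.61. These differences include the change in stromal cells and are not the change within mural cells. For Col18a1, S1pr3, Fn1 and Cebpb no difference between mural and stromal effects passed the threshold (log2 differences of 1.26, -2.29, 0.55 and -0.81, adjusted p = 0.597, 0.107, 0.910 and 0.737, edgeR). Col18a1 stood at 55.1, 87.8, 111 and 92.9 CPM in the stromal cells of the PBS libraries and 286, 229.6, 157 and 149.7 CPM in those of the bleomycin libraries, without overlap, and endothelial cells held 149, 37.0, 188 and 62.7 CPM against 412, 187, 604 and 296 CPM, where the highest PBS and the lowest bleomycin library overlapped.

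The genotype comparison asked whether SARATg mural cells differed from SARAWT cells with treatment held equal. No gene passed the threshold in edgeR over all members (0 of 5144, 0%, with 230 at an unadjusted p under 0.05) or over cells with Rgs5 or Myh11 (0 of 2621, 0%, with 138), and DESeq2 called 0 over all members. Contractile genes had 24 of 25 log2 fold changes above 0 over all members, with a median of 0.34 against 0.01 for all genes, and none passed. Other lists leaned the other way in cells with Rgs5 or Myh11, again with none passed. Immediate early and dissociation genes had 4 of 25 above 0, a median of -0.71 and 11 at an unadjusted p under 0.05 (edgeR). Chemokine and adhesion genes had 4 of 10 above 0, a median of -0.92 and 5 at that level. Over all members the genes nearest the threshold in each direction were Igfbp2, an IGF-binding protein, at 0, 0, 2.60 and 42.6 CPM in the SARAWT PBS and bleomycin libraries against 42.7 and 211 CPM in SARATg (adjusted p = 0.208, edgeR), and Tiparp, a target of the aryl hydrocarbon receptor, at 692, 756, 760.1 and 289 CPM against 276 and 96.0 CPM (log2 fold change -1.52 ± 0.33 SE, adjusted p = 0.236, edgeR). In cells with Rgs5 or Myh11 the nearest was Cxcl1, a neutrophil chemokine, at 3087, 1571, 3969.9 and 3150.4 CPM in SARAWT against 1396 and 496 CPM in SARATg (log2 fold change -2.08 ± 0.38 SE, adjusted p = 0.187, edgeR). Here too the gene list term fits SARAWT PBS 1 and 2, so the log2 fold changes rest on SARAWT PBS 3 and SARAWT bleomycin 3 against the SARATg libraries. With 1 SARATg library per treatment and SARAWT libraries whose Zfyve9 or ZFYVE9 levels go against their labels, these values set no limit on a genotype effect. Leaving out any 1 of the 6 fitted libraries gave calls, 25 without SARAWT PBS 3 or SARATg PBS, 48 without either bleomycin library, 70 without SARAWT PBS 1 and 93 without SARAWT PBS 2.

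The difference of the bleomycin effect between genotypes could be fitted with 1 residual degree of freedom, as all groups but SARAWT PBS were single libraries. Over all members edgeR called 14 of 6444 genes (0.217%), 6 more positive (0.0931%) and 8 more negative (0.124%) in SARATg, of which Higd1b belongs to the rule and Zfyve9 to the label check. The spread of the single libraries is not measured, so the calls are given as values of these libraries and not as an effect of genotype. Vcam1, a leukocyte adhesion molecule, stood at 5.49, 0 and 13.0 CPM in SARAWT PBS, 649 in SARAWT bleomycin 3, 233 in SARATg PBS and 391 in SARATg bleomycin (log2 difference -4.85 ± 0.92 SE, adjusted p = 0.000170, edgeR). S100a4, a calcium-binding protein of motile cells, stood at 65.9, 287 and 466 CPM, 587, 81.6 and 1818 CPM in the same order (log2 difference 4.13 ± 0.86 SE, adjusted p = 0.00155, edgeR). The keratin gene Krt10, also called, stood at 4032 CPM in SARATg PBS and at most 23.7 CPM in the other libraries. Over cells with Rgs5 or Myh11, 0 of 3487 genes were called by edgeR (0%).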

How the data were processed

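The data are 10x Genomics 3′ v3 libraries. The authors deposited filtered UMI count matrices per library made with Cell Ranger (3.0.2 per the labels, with mm10; the file headers name other versions), not normalized, and named Seurat 2.3.4 for later steps. Counts of 30406 shared genes were used. Members and gene lists were chosen with earlier results of these data known. UMIs of mural cells were summed per library with at least 10 cells and tested with edgeR 4.0.16 (TMM, filterByExpr, quasi-likelihood test, Benjamini-Hochberg over all genes tested, threshold 0.05) in R 4.3.3, with DESeq2 1.42.0 as an alternative. Shares were tested by exact permutation over libraries (Python 3.11.15, scipy 1.17.1). Doublets predicted by scrublet in scanpy 1.11.5 (13 of 172 members, 1107 of all kept skin cells) were kept and left out in an alternative. Named genes came from the lists and, per comparison, up to 10 genes per direction past the threshold without overlap of groups and with at least 20 CPM, by log2 fold change, or the next by p where fewer than 5 passed. For ratios between cell classes, 10 CPM were added to each mean. Intervals cover counting error only. Same-numbered SARAWT libraries deviated together in stromal sums (r across genes 0.213, 0.246 and 0.299, other pairs -0.177 to -0.0701), and they also share gene list and sex. The fits were tested on simulated data, where the interaction fit recovered none and the fit against stromal cells almost none of the changed genes, and the others at most 50%, so that a gene without a call is not shown to be alike.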

Additional observations from a re-analysis of the deposited data

Results flagged for a closer look

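In 38 groups of 4 libraries tested for a sample far from the others, 4 values stood apart, where chance gives about 1 in 20. Mouse Zfyve9 stood at 224 CPM in SARATg bleomycin among the 4 bleomycin libraries. Shared barcodes made up 55.5% of SARAWT PBS 2 among the PBS libraries. In cells with Rgs5 or Myh11, Mgp stood at 162 CPM in SARAWT PBS 1 and Spp1 at 2.67 CPM in SARAWT PBS 3, the latter a single UMI where the other PBS libraries had 0.

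The interaction of treatment and genotype in edgeR called 14 genes over all members, in a fit with 1 residual degree of freedom, so that these calls do not show that the effect differed. Of those named, Tnni2, a fast skeletal troponin, differed by 5.93 on the log2 scale, Ednrb, an endothelin receptor, by 4.85, and S100a4 by 4.13. More negative in SARATg were the chemokine genes Ccl7 (-9.54) and Ccl11 (-7.11), Spata7 (-9.05), the keratinocyte gene Krt10 (-8.62), the lipid carrier gene Apoe (-5.00), Gpx3, a secreted glutathione peroxidase (-4.91), and Vcam1 (-4.85). These log2 values rest on 1 library per group, with SARAWT PBS 3 alone for SARAWT PBS, as the gene list term fits SARAWT PBS 1 and 2. For Ccl7, SARAWT PBS 1 held 390 CPM, above SARAWT bleomycin 3 at 317 CPM. The value of Spata7 rests on a SARATg bleomycin library at 0, and none of these genes was called over cells with Rgs5 or Myh11.

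The same rule applied to the kidney libraries of the series, from an experiment with aristolochic acid that has no part in the skin comparisons, found 63 cells of 61744 kept, with 0 to 16 in a library.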

How the results depend on the processing

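The lower mural share after bleomycin kept its direction under every alternative run. Over all libraries it was -0.960 percentage points of Ptprc-free cells (exact permutation p = 0.114), and -0.746 to -0.464 points with 1 library left out (p = 0.0571, the smallest for 7 libraries). Over all SARAWT members, the 699 calls became 302 with DESeq2, 205 with at least 5 cells per library, 216 with the replicate block at that minimum, 51 with Rgs5 or Myh11 required and 0 with both (249 at an unadjusted p under 0.05), 10 in Rgs5-led cells at 5 cells per library, 631 to 954 with 1 library left out, and 0 without shared barcodes (edgeR, 1302 at an unadjusted p under 0.05). The genotype count of 0 became 4 at 2 marker UMIs, 91 without shared barcodes, 66 without a filter on low counts, 10 on the shorter gene list and 0 to 93 with 1 library left out. The interaction gave 1 gene with DESeq2, 3 without the gene list term and 0 with Rgs5 or Myh11 required. The difference from stromal cells was called for 422 genes over all members, 182 with DESeq2, 103 with Rgs5 or Myh11 required and 147 to 512 with 1 library left out. The 145 calls in cells with Rgs5 or Myh11 became 54 with DESeq2, 71 with SARAWT bleomycin 2, 68 with that library and without fibroblast-marker cells (63 higher and 82 lower became 19 and 52, then 14 and 54), 2 in Rgs5-led cells at 5 cells per library and with no gene list term, 960 over all members, 39 to 343 with 1 library left out and 196 with the replicate block. In that comparison the block added the calls of Kcnj8 and Il6 and changed no other call named here. It takes its log2 fold changes from the same libraries as the main fit and leaves 1 residual degree of freedom. Calls kept there are therefore no separate check. Among genes named here, 13 values changed sign. Over all members Plagl1 gave 2.41, a call in the other direction (adjusted p = 0.000773, edgeR), and Ednra -0.52 on the log2 scale. Acta2 gave 0.22 with SARAWT bleomycin 2 and without fibroblast-marker cells and 0.45 in Rgs5-led cells at 5 cells per library with no gene list term, and in SARAWT 0.19 with Rgs5 or Myh11 required and 0.037 in Rgs5-led cells, both at 5 cells. Cspg4 gave 0.0048 with SARAWT bleomycin 2, 0.11 without fibroblast-marker cells as well, and -0.78 to 0.27 with 1 library left out. Xist gave 0.021 with the replicate block. The difference of Col18a1 from stroma over all members was -0.029 with stricter cell filters and -0.14 to 0.42 with 1 library left out. Of the other single-gene values, 1038 kept direction and side of the threshold, 297 lost their call and 32 gained one. Leaving out SARAWT bleomycin 1 or 2, which enter no fit at 10 cells a library, changes nothing by construction and is included among the kept values. The causes were not tested. DESeq2 gave no adjusted p for 1728 of 2621 genes. The SARAWT, interaction and stromal comparisons could not be run without SARAWT bleomycin 3, the SARAWT and genotype comparisons in Rgs5-led cells at 10 cells a library, the SARAWT comparison with the replicate block at that minimum, or the interaction without 1 SARAWT PBS library.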
